A study of Arabidopsis thaliana with 38 samples.

Results

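The M-gamma MADS-box genes around PHERES1 (PHE1) were followed through developing and imbibed Arabidopsis seeds. The family was taken as 8 genes chosen by their identifiers, PHE1 (AT1G65330), PHE2 (AT1G65300), AGL34 (AT5G26580), AGL35 (AT5G26630), AGL36 (AT5G26650), AGL90 (AT5G27960), AGL45 (AT3G05860) and AGL80 (AT5G48670), out of 26925 genes with values. Polyadenylated RNA was sequenced from vel3-1, a T-DNA insertion allele of VEL3, and from its wild type Col-0, in globular-stage seeds, in mature endosperm and in endosperm imbibed in water for 24 h (24HAI). All seeds were set at 16 °C, and each genotype and stage had 3 libraries. Each globular library was made from whole seeds pooled from several siliques, and each endosperm library from endosperm-enriched tissue, according to the study's methods. VEL3 belongs to the VIN3 family of PHD finger proteins but has no PHD domain of its own, and the study examined it as part of a histone deacetylase complex in the central cell and endosperm. The 640 genes listed for mature endosperm include 0 of the 8 members, so results are given for globular seeds and 24HAI endosperm.

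M-gamma proteins are type I MADS-domain transcription factors, a class of plant DNA-binding proteins that act mainly in the female gametophyte and in the endosperm, and they bind DNA as partners of M-alpha proteins such as AGL62. The endosperm is the nutritive tissue of the seed and inherits its genome from both parents, with an excess of maternal copies. PHE1 is an imprinted gene transcribed mainly from its paternal copy, while the maternal copy is silenced by the FIS form of Polycomb repressive complex 2 (FIS-PRC2), which places the repressive mark H3K27me3. AGL36 is imprinted in the opposite way, with transcripts mainly from the maternal copy, and AGL80 acts in the central cell, from which the endosperm derives. Reads of the parental copies are not separated in the values analysed here.

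The members sit in 2 clusters and at 3 single positions of the TAIR10.1 assembly. PHE2 (chr1:24254929-24255857, plus strand) and PHE1 (chr1:24266257-24267336, minus strand) lie 10399 bp apart. AGL36 (chr5:9343785-9345011, plus strand), AGL35 (chr5:9350812-9351620, plus strand) and AGL34 (chr5:9393065-9394102, minus strand) come next to one another in the family, with 5800 bp between the first pair. AGL90 (chr5:9991685-9992770, minus strand) and AGL80 (chr5:19738646-19739841, minus strand) lie farther along chromosome 5, and AGL45 (chr3:1751385-1752407, minus strand) lies on chromosome 3. Of the 8 gene models 6 have a single exon, AGL90 has 2 exons and AGL45 has 3. No other annotated gene overlaps any of them.

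The paralogs differ little in coding sequence, which bears on how well reads can be assigned to each. The first 90 coding bases of PHE1 (chr1:24267231-24267320, minus strand) and PHE2 (chr1:24254929-24255018, plus strand) are shown from RefSeq, 5′ to 3′, with capitals where PHE2 departs from PHE1 in a global alignment, at 13 substituted bases. The lines below them give AGL36 (chr5:9343785-9343874, plus strand), AGL90 (chr5:9992681-9992770, minus strand) with capitals at its 5 substitutions against AGL36, and AGL34 (chr5:9394013-9394102, minus strand) with capitals at 9 substitutions against AGL36 and at 6 inserted bases, the other 6 bases of AGL36 falling past the end of the window. The 6 inserted bases also stand directly before the annotated start of AGL36 and of AGL90. Their capitals therefore mark a different annotated start and not a difference in sequence.
PHE1: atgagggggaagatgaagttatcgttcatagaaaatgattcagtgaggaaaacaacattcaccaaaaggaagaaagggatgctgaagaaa
PHE2: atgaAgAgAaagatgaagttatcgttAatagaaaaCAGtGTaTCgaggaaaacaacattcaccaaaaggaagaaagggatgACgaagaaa
AGL36: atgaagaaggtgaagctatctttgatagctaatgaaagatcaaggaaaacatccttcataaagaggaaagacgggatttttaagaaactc
AGL90: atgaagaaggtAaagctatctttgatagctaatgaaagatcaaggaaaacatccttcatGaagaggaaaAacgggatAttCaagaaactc
AGL34: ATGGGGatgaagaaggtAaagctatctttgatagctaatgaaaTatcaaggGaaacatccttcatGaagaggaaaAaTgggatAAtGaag
Over the aligned coding bases PHE1 and PHE2 were 88.7% identical and AGL36 and AGL90 96.3% identical. AGL34 was 91.9% identical to AGL36 and 92.5% to AGL90, while all other pairs lay between 63.0% and 73.6%. Of the 50-base stretches of the transcript models, 6.89% of those of PHE1, 8.07% of PHE2, 15.9% of AGL36, 15.6% of AGL90 and 0.607% of AGL34 occur again elsewhere in the genome without mismatch, nearly all in the paralogs named. No 150-base stretch of any of the 8 models occurs a second time, and no 50-base stretch of AGL35, AGL45 or AGL80. The study's methods give paired reads of 150 bases, a length at which no stretch is shared without mismatch. How reads with several positions were treated is not given in the sources used here. Where trimmed reads were shorter, a part of those of AGL36 and AGL90 could have been left out or shared between the paralogs. The same holds for a smaller part of PHE1 and PHE2.

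The sequence before the annotated gene start is shared among AGL36, AGL90 and AGL34. For the 200 bases before the start of AGL36 (chr5:9343585-9343784, plus strand), AGL90 (chr5:9992771-9992970, minus strand) and AGL34 (chr5:9394103-9394302, minus strand), capitals again mark bases substituted or inserted in AGL90 and AGL34 against AGL36.
AGL36: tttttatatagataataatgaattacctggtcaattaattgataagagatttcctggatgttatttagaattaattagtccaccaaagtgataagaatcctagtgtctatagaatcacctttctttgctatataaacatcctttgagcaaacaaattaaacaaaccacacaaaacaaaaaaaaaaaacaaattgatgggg
AGL90: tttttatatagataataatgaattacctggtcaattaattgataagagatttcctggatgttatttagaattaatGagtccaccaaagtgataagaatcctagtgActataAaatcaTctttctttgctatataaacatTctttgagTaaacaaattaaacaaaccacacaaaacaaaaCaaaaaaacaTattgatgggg
AGL34: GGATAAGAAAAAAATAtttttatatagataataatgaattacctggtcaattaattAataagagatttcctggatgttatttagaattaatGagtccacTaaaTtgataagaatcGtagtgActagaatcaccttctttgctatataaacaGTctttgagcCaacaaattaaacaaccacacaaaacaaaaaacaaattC
AGL90 departed from AGL36 at 8 substituted bases of 200, and AGL34 at 10 substituted and 16 inserted bases. AGL34 also lacked 16 bases of AGL36, some within the stretch and some at its end, which no capital marks. The 16 inserted bases all stand at the edge of the stretch farthest from the start. The bases lacking at the other edge are the first coding bases of AGL34 as annotated. The windows of AGL34 and AGL36 are thus offset, which also enters the identity given below for AGL34. In 7 of the 8 members the 250 bases before the start were compared. The identity was 95.6% for AGL36 and AGL90, 83.1% for AGL34 with either of these, and 44.7% to 56.5% for the other 18 pairs. The TATA word TATATAAA stands on the sense strand within 250 bases of the start in 5 of these 7 members, beginning 50 bases before the start of PHE1 and of AGL35, 59 bases before that of AGL34, and 72 bases before that of AGL36 and of AGL90. It was not found in this window of AGL45 or AGL80. In AGL36, AGL90 and AGL34 the annotated gene start is the first coding base, whereas that of PHE1 lies before it. These distances are therefore not all taken from a like point. Among 26714 nuclear genes 6.98% hold the word on the sense strand and 10.8% on either strand. A CArG box, the sequence bound by many MADS-domain proteins, was found within 250 bases of the start in 1 of the 7 members, AGL35, 120 bases before its start, and in 2.55% of all genes with such a window.

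Values are TPM, a measure of transcripts in which reads are divided by the length of the gene and brought to a common sum, so levels of different genes can be set side by side. The depth behind each value is unknown, because TPM carry no counts. The label check went against the labels. VEL3 itself had 9.79, 8.30 and 13.0 TPM in the globular libraries labelled vel3, against 1.34, 1.99 and 2.23 TPM in Col-0, so results are given for the libraries labelled vel3. A value per gene does not tell whether its reads come from a transcript that spans the insertion. At 24HAI VEL3 was listed at 0, 0.0770 and 0.160 TPM in the libraries labelled vel3 and at 0 in all 3 Col-0 libraries. The globular libraries are numbered as their columns, which name no pairs. In 1 of them, vel3 library 3, values were raised across many genes. The 4212 nuclear genes with a value of 0 in each of the 24HAI libraries had medians of 1.43, 0.322 and 10.0 TPM in globular libraries 1 to 3 labelled vel3, against 0.317, 0.376 and 0.613 TPM in Col-0. Over all tested genes the median difference between the genotypes was 0.50 on the log2(TPM + 1) scale. The summed level of 5 markers of the developing endosperm was 88.2 to 106 TPM in the globular libraries labelled vel3 and 85.1 to 122 TPM in Col-0, with none at 0. The 5 markers of the seed coat summed to 371 to 736 TPM in the libraries labelled vel3 and 586 to 655 TPM in Col-0. The 4 markers of the embryo summed to 80.0 to 124 TPM in the libraries labelled vel3 and 90.2 to 101 TPM in Col-0. Most of each sum came from 1 gene, CKX2, BAN and ATML1 in turn. CKX2 had 55.1 to 88.3 TPM in the libraries labelled vel3 and 65.9 to 98.3 TPM in Col-0. The raised values of vel3 library 3 enter its sums too. The sums therefore do not show whether the other markers, or the tissues, were alike between the genotypes. Single markers are given further below.

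In globular seeds every member had its 3 libraries labelled vel3 above its 3 Col-0 libraries. This order held for 8 of 8 members as deposited, beside 20.0% of the 26593 tested genes, whose mean was 1 TPM or more, and 19.8% of all listed genes. The exact two-sided permutation test gave p = 0.1 for each member, the smallest value that 3 libraries against 3 allow. The genotypes were compared across all genes with limma on log2(TPM + 1), with the variance modelled as a trend along the level and p-values adjusted by Benjamini-Hochberg, and a gene was called at an adjusted p under 0.05 and a difference of at least 2-fold. PHE1, AGL35, AGL36 and AGL90 were called higher and none was called lower, which is 4 of 8 members beside 1.71% of tested genes called higher and 0.369% called lower. The median log2 difference was 1.61 over the 8 members and 0.50 over all tested genes. AGL34 passed the filter on low values only through the libraries labelled vel3. In whole seeds, a change in the share of endosperm, in how far the seed has developed and in the RNA level within the endosperm cannot be told apart.

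**Figure D1:**
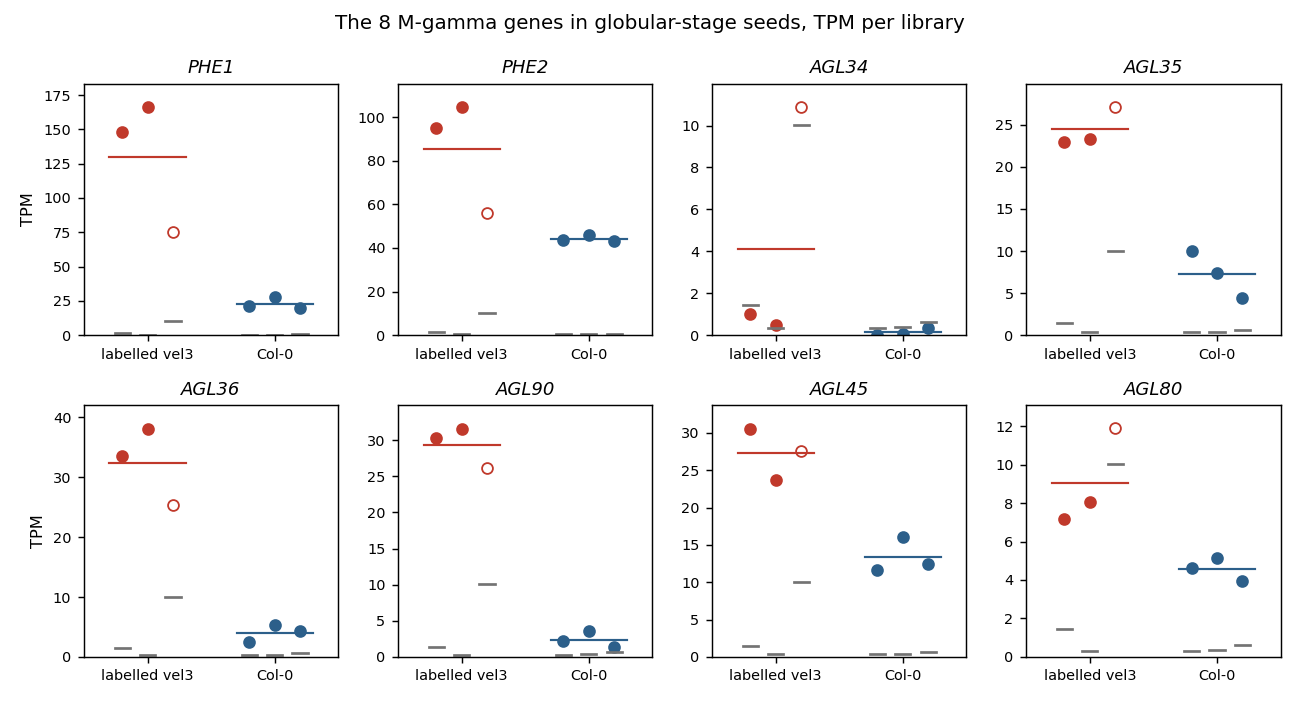
TPM of the 8 members in each globular library, on a linear axis from 0, with libraries labelled vel3 on the left and Col-0 on the right of each panel. Points are libraries, the open point is vel3 library 3, coloured lines are group means (n = 3), and short grey lines give the median of the 4212 genes listed at 0 at 24HAI in the same library. PHE1, PHE2, AGL35, AGL36, AGL90 and AGL45 stand above the grey line in every library, whereas AGL34 lies below it in 4 of the 6 libraries and AGL80 lies just above it in vel3 library 3.

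PHE1 was the most abundant member by mean in the libraries labelled vel3. It had 148, 166 and 75.0 TPM in the libraries labelled vel3, against 21.3, 27.5 and 20.0 TPM in Col-0. The groups did not overlap, and the lowest library labelled vel3 was library 3. The means were 130 ± 48.3 TPM in the libraries labelled vel3 and 22.9 ± 4.04 TPM in Col-0 (SD, n = 3 each), a ratio of 5.67. The log2 difference was 2.39 (standard error 0.19, limma adjusted p = 7.19e-35). Here and for the other members, the spread in this fit came from the trend alone. Without the trend the limma adjusted p of PHE1 was 0.148. By rank, PHE1 lay above 95.8% to 97.1% of all listed genes in the libraries labelled vel3 and above 74.9% to 80.3% in Col-0, a measure that does not depend on how a library is scaled.

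PHE2, the paralog next to PHE1, had a smaller difference. It had 95.1, 105 and 56.1 TPM in the libraries labelled vel3, against 43.6, 45.8 and 43.2 TPM in Col-0. The ratio of the means was 1.93, and the log2 difference of 0.88 (standard error 0.19, limma adjusted p = 0.000154) stayed under the 2-fold minimum. Without vel3 library 3 the difference was 1.16 (limma adjusted p = 0.00152), which passed it.

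The order of the paralogs was turned round between the genotypes. PHE1 stood at 1.56, 1.59 and 1.34 times the TPM of PHE2 in the libraries labelled vel3, against 0.487, 0.601 and 0.462 times in Col-0. PHE1 was thus the higher of the pair in 3 of 3 libraries labelled vel3 and the lower in 3 of 3 Col-0 libraries. This ratio is taken within a library, so the scale of the library cancels, and the exact permutation p for its log2 value was 0.1, the smallest possible here. Adjusted over the 7 ratios of members to PHE1 it was 0.175.

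**Figure D2:**
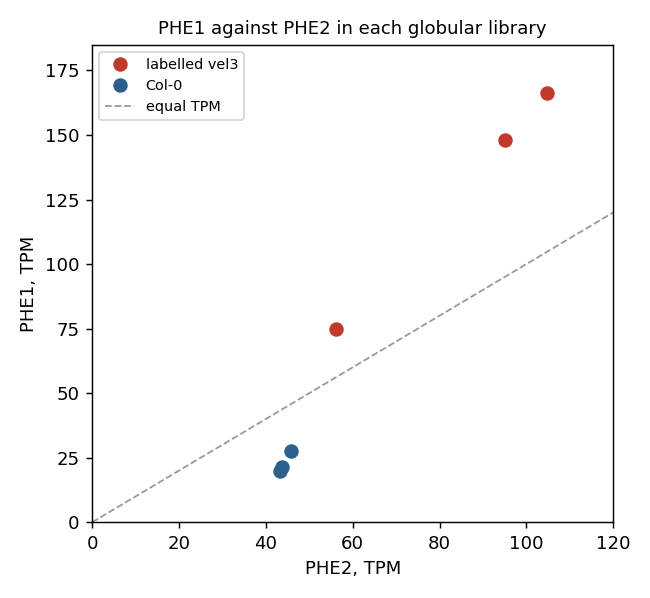
TPM of PHE1 (vertical axis) against TPM of PHE2 (horizontal axis) in the 6 globular libraries, 3 labelled vel3 and 3 from Col-0, with a dashed line of equal TPM. The libraries labelled vel3 lie above the line, at ratios of 1.34 to 1.59, and those of Col-0 below it, at 0.462 to 0.601.

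AGL36 and AGL90, the near-identical pair, had the largest differences of the family. AGL36 had 33.5, 38.1 and 25.4 TPM in the libraries labelled vel3, against 2.47, 5.24 and 4.38 TPM in Col-0. The means of 32.3 ± 6.45 TPM in the libraries labelled vel3 and 4.03 ± 1.42 TPM in Col-0 (SD, n = 3 each) gave a ratio of 8.02, and the log2 difference was 2.75 (standard error 0.26, limma adjusted p = 4.34e-23). AGL90 had 30.3, 31.6 and 26.1 TPM in the libraries labelled vel3, against 2.15, 3.64 and 1.30 TPM in Col-0. Its ratio of means was 12.4, and its log2 difference of 3.23 (standard error 0.30, limma adjusted p = 1.22e-23) ranked 13 of 26593 tested genes, with AGL36 at 46 and PHE1 at 96.

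By rank, AGL90 lay above 80.6% to 82.6% of all genes in the libraries labelled vel3 and above 32.5% to 45.4% in Col-0, and AGL36 above 80.1% to 84.4% in the libraries labelled vel3 and above 41.4% to 50.2% in Col-0. The ratio of AGL36 to AGL90 did not separate the genotypes. On the log2(TPM + 1) scale it was 0.14, 0.26 and -0.04 in the libraries labelled vel3, against 0.14, 0.43 and 1.22 in Col-0 (exact permutation p = 0.2). The pair has 50-base stretches in common but no 150-base stretch, so how far its values are separate readings is not known.

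AGL34, the third copy of this group, was the least abundant member in both genotypes. It had 0.987, 0.480 and 10.9 TPM in the libraries labelled vel3, against 0, 0.0553 and 0.336 TPM in Col-0. The value of 10.9 TPM stood in library 3, where the 4212 genes listed at 0 at 24HAI had a median of 10.0 TPM, and 61.2% of them lay below AGL34. The log2 difference of 1.54 had a standard error of 1.15 and was not called (limma adjusted p = 0.548). With that median subtracted from each library, AGL34 was at 0, 0.158 and 0.842 TPM in the libraries labelled vel3 and at 0 in all 3 Col-0 libraries, too low to be tested. AGL34 and AGL36, which are 83.1% identical over the 250 bases before the start, thus stood at different levels in the same seeds.

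AGL35, which lies beside AGL36 but shares only 70.3% of aligned coding bases with it, also rose. It had 23.0, 23.3 and 27.1 TPM in the libraries labelled vel3, against 10.1, 7.39 and 4.40 TPM in Col-0. The ratio of means was 3.36 and the log2 difference 1.68 (standard error 0.25, limma adjusted p = 1.71e-09). By rank, it lay above 75.0% to 82.0% of genes in the libraries labelled vel3 and above 47.4% to 62.1% in Col-0. Its call was lost when no filter on low values was used (limma adjusted p = 0.0732).

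AGL45 lay at the edge of the fold minimum. It had 30.6, 23.6 and 27.5 TPM in the libraries labelled vel3, against 11.7, 16.1 and 12.4 TPM in Col-0. The ratio of means was 2.04, but the log2 difference of 0.98 (standard error 0.21, limma adjusted p = 0.000288) was just short of 2-fold. It passed with a pseudocount of 0.1, at 1.03, and without vel3 library 2 or Col-0 library 2, at 1.07 and 1.11.

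AGL80, the central cell gene, was the member whose difference stood closest to that of all genes. It had 7.15, 8.04 and 11.9 TPM in the libraries labelled vel3, against 4.61, 5.14 and 3.97 TPM in Col-0. The log2 difference was 0.82 (standard error 0.37, limma adjusted p = 0.334). By rank the genotypes overlapped, with AGL80 above 53.2%, 55.0% and 41.6% of all genes in the libraries labelled vel3 and above 49.0%, 49.9% and 45.9% in Col-0. Its highest TPM and its lowest rank were thus in the same library, vel3 library 3.

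The raised values of vel3 library 3 were taken into account by subtracting from each library the median of the 4212 genes. After this, 6 of 8 members still had all libraries labelled vel3 above all of Col-0, beside 4.36% of all listed genes, and AGL34 and AGL80 overlapped. The same 4 members were called, beside 0.858% of 17956 tested genes called higher and 0.412% called lower. Their log2 differences were 2.34 for PHE1 (limma adjusted p = 0.00556), 1.52 for AGL35 (0.0408), 2.63 for AGL36 (0.00211) and 3.22 for AGL90 (0.000777). PHE2 at 0.80 (0.524), AGL45 at 0.79 (0.399) and AGL80 at 0.11 (0.951) were not called. The median of all tested genes was then -0.21, so that relative to it PHE2 stood at 1.01 and AGL45 at 1.00, against 0.39 and 0.48 relative to the median as deposited.

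**Figure D3:**
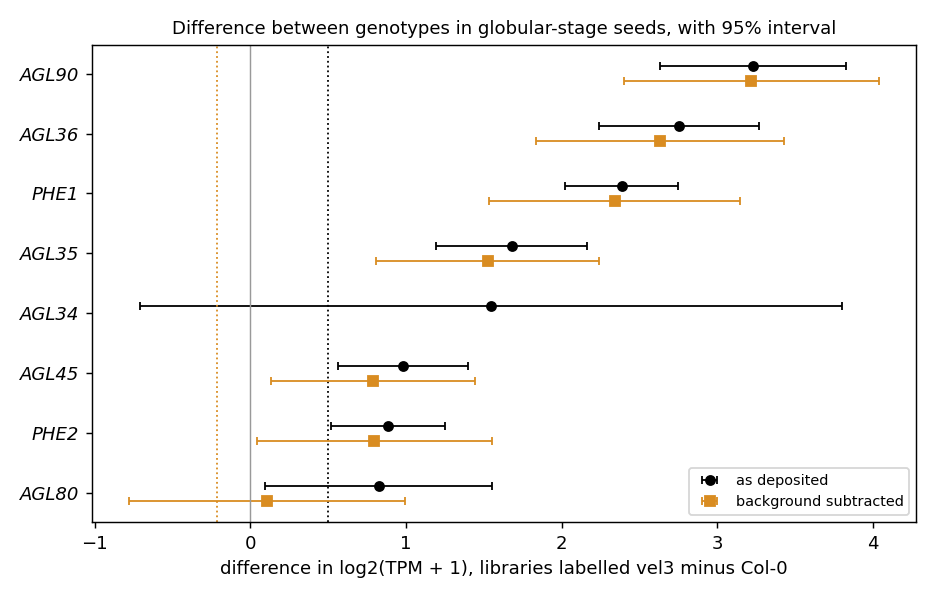
Difference in log2(TPM + 1) of each member, libraries labelled vel3 minus Col-0, in globular seeds, as deposited (black circles) and with the background subtracted (orange squares), with 95% intervals from limma. Dotted lines give the median of all tested genes in each fit, 0.50 and -0.21. Intervals as deposited rest on the trend alone (infinite prior degrees of freedom), without separate weight for a gene's own scatter between replicates. Those with the background subtracted weigh both (9.53 prior degrees of freedom), so the widths are not like measures. AGL90, AGL36, PHE1 and AGL35 lie to the right of both lines with either set of values, and AGL80 lies at 0.82 and 0.11.

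Scaling moved the median difference of all tested genes to 0.11 (median-ratio) and -0.02 (quantile normalization). PHE1, AGL35, AGL36 and AGL90 were called under both, with PHE1 at 1.96 and 2.44 and AGL90 at 2.86 and 2.57, and all 8 differences stayed above 0, with AGL80 at 0.45 and 0.10. Of the 26593 tested genes 580 were called higher and 171 lower after median-ratio scaling, and 191 and 64 after quantile normalization.

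The calls depend on how limma estimates the spread. With the trend, the spread was taken wholly from genes at the same level (infinite prior degrees of freedom). Without the trend 0 of 26593 genes were called, with 2034 genes at an unadjusted p under 0.05, and the adjusted p was 0.107 for AGL36 and AGL90, 0.148 for PHE1, 0.241 for AGL35, 0.388 for AGL45 and 0.500 for PHE2, AGL34 and AGL80. Without vel3 library 3, PHE1 (2.74), AGL35 (1.60), AGL36 (2.91) and AGL90 (3.31) were called and PHE2 joined them. These were 5 of the 7 members that could be tested, beside 2.14% of 19639 tested genes called higher and 0.647% called lower.

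The size of the difference varied among the members. Each of them was set against PHE1 in the same library, as the log2 of the ratio of TPM + 1, and the mean over the libraries labelled vel3 was compared with that over Col-0. The ratio to PHE1 differed by -1.50 for PHE2, by -1.41 for AGL45 and by -1.56 for AGL80, and by 0.84 for AGL90. In these 4 the genotypes did not overlap (exact permutation p = 0.1 each, 0.175 adjusted over the 7 ratios). The log2 difference of PHE1 stood 1.89 above the median of all tested genes, so a fall relative to PHE1 is not particular to these members. The share of all genes whose ratio to PHE1 did not overlap was not counted. AGL36 at 0.37, AGL35 at -0.71 and AGL34 at -0.84 overlapped between the genotypes. With 3 libraries a group none of the 7 ratios could pass after adjustment.

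The summed TPM of the family was 369, 396 and 260 in the libraries labelled vel3, against 95.8, 111 and 89.9 in Col-0. PHE1 made up 40.2%, 42.0% and 28.8% of this sum in the libraries labelled vel3 and 22.2%, 24.8% and 22.2% in Col-0. PHE1 and PHE2 jointly made up 66.0%, 68.4% and 50.4% in the libraries labelled vel3, against 67.7%, 66.1% and 70.2% in Col-0. The share of the pair was therefore lower in vel3 library 3 than in all other libraries, and in the other 5 it lay between 66.0% and 70.2%.

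By mean TPM, the order in the libraries labelled vel3 was PHE1 (130), PHE2 (85.3), AGL36 (32.3), AGL90 (29.3), AGL45 (27.3), AGL35 (24.5), AGL80 (9.03) and AGL34 (4.12). The ranges of PHE1 and PHE2 overlapped, as did those of each neighbour from AGL36 to AGL35 and those of AGL80 and AGL34, while PHE2 stood apart from AGL36 and AGL35 from AGL80. In Col-0 the order was PHE2 (44.2), PHE1 (22.9), AGL45 (13.4), AGL35 (7.28), AGL80 (4.57), AGL36 (4.03), AGL90 (2.36) and AGL34 (0.130). There PHE2, PHE1 and AGL45 each stood apart from their neighbours, AGL35, AGL80, AGL36 and AGL90 overlapped in turn, and AGL34 stood apart below them. By mean, AGL36 and AGL90 were above AGL45 and AGL35 in the libraries labelled vel3, where the ranges overlapped, and below both in Col-0.

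A further order, by mean log2(TPM + 1) over all 6 globular libraries, was PHE2, PHE1, AGL45, AGL35, AGL36, AGL90, AGL80 and AGL34. Its neighbours were compared within a library by an exact sign-flip permutation test. The order came from these same values, which set the direction of each mean difference beforehand, so the test cannot support it. PHE2 was above PHE1 in 0 of 3 libraries labelled vel3 and 3 of 3 of Col-0. AGL90 was above AGL80 in 3 of 3 libraries labelled vel3 and 0 of 3 of Col-0. PHE1 was above AGL45, AGL45 above AGL35 and AGL80 above AGL34 in 6 of 6 libraries each (exact p = 0.03125, the smallest possible, and 0.0729 adjusted over the 7 neighbour pairs). The mean log2 differences of these pairs were 1.44, 0.50 and 1.95. The other 4 pairs gave exact p-values from 0.0625 to 0.75. None of the 7 passed after adjustment.

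Among genes outside the family, calls were made for 3 of 6 M-alpha genes and 0 of 8 other M-gamma genes. The 3 M-alpha genes of the endosperm or central cell were called higher in the globular libraries labelled vel3, beside 1.71% of all tested genes called higher and 0.369% called lower. The median log2 difference was 1.22 over the 6 and 0.50 over all tested genes, and without the trend in limma 0 of the 6 were called. AGL62, which holds the endosperm in its syncytial phase and can pair with PHE1, had 12.2, 9.34 and 9.27 TPM in the libraries labelled vel3, against 1.25, 2.59 and 3.14 TPM in Col-0 (log2 difference 1.80, limma adjusted p = 0.00180). AGL23 at 1.72 (adjusted p = 3.96e-06) and AGL28 at 1.53 (8.37e-06) were the other two. AGL40 at 0.85 (0.000411) fell short of 2-fold, and AGL91 at 0.12 (0.697) and AGL61 at 0.91 (0.570), the central cell partner of AGL80, were not called. AGL61, with a Col-0 mean of 0.655 TPM, passed the filter on low values only through the libraries labelled vel3. With the background subtracted AGL23 alone of the 5 that could be tested was called, at 1.48 (limma adjusted p = 0.0349), while AGL62 stood at 0.81 (0.815) and AGL28 at 1.25 (0.0939), and AGL91 turned to -0.18 (0.894).

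Of the 8 other M-gamma genes (AGL41, AGL46, AGL48, AGL86, AGL87, AGL92, AGL95 and AGL96) 0 were called by limma with or without the trend. Of all tested genes 1.71% were called higher and 0.369% lower with the trend, and 0 of 26593 without it. At these shares 0 of 8 does not set these genes apart. With the trend 3 of the 8 had an unadjusted p under 0.05, beside 2995 of the 26593 tested genes. In 5 of the 8 all libraries labelled vel3 stood above all of Col-0, beside 20.0% of the tested genes. Their median log2 difference was 0.93 as deposited and 0.03 with the background subtracted, where 0 of the 6 that could be tested were called and 3 of them were below 0. AGL46 had 4.02, 3.48 and 9.58 TPM in the libraries labelled vel3, against 0.433, 0.812 and 0.657 TPM in Col-0. It was called without vel3 library 3, at 1.54 (limma adjusted p = 0.0213), and after median-ratio scaling, at 1.64 (0.00391). AGL46 and AGL41, with Col-0 means of 0.634 and 0.164 TPM, passed the filter on low values only through the libraries labelled vel3. Both are among the 5 genes without overlap. AGL87 had 11.6, 12.5 and 13.8 TPM in the libraries labelled vel3, against 7.87, 4.91 and 5.20 TPM in Col-0. Its log2 difference of 0.99 (limma adjusted p = 0.0444) fell just short of 2-fold and passed with a pseudocount of 0.1, at 1.09 (0.0393), while with the background subtracted it was 0.47 (0.806). AGL96, the most abundant of them, had 23.6, 23.7 and 38.0 TPM in the libraries labelled vel3, against 29.9, 28.4 and 19.1 TPM in Col-0, groups that overlap.

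Of the 4 subunits of FIS-PRC2, the complex that silences maternal PHE1, 0 were called by limma with or without the trend. Of all tested genes 1.71% were called higher and 0.369% lower with the trend, and 0 of 26593 without it. At these shares 0 of 4 does not set the subunits apart. With the trend 2 of the 4 had an unadjusted p under 0.05, beside 2995 of the 26593 tested genes. FIS2 had 8.07, 6.71 and 15.0 TPM in the libraries labelled vel3, against 21.9, 18.8 and 18.5 TPM in Col-0, without overlap, and its log2 difference of -0.99 (limma adjusted p = 0.00218) was just under 2-fold. With the background subtracted it was called lower, at -1.54 (limma adjusted p = 0.0128), and without vel3 library 3, at -1.31 (0.000819). Median-ratio scaling (-1.40, 0.000199), quantile normalization (-1.17, 0.00901) and a pseudocount of 0.1 (-1.07, 0.00153) also gave a lower call for FIS2. Neither the filter on low values nor a robust spread in limma changes the log2 difference, so FIS2 at -0.99 could not be called under either. With no filter its limma adjusted p was 0.343. MEA, the catalytic subunit, had 5.32, 4.40 and 14.2 TPM in the libraries labelled vel3, against 1.46, 1.98 and 2.02 TPM in Col-0, without overlap. Its log2 difference of 1.52 was not called (limma adjusted p = 0.0986), nor was that of 1.08 with the background subtracted (0.312), but it was called higher without vel3 library 3, at 1.06 (0.0287), and after median-ratio scaling, at 1.16 (0.00276). FIE had a difference of 0.19 and MSI1 of 0.03.

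Of the 5 markers of the developing endosperm, MINI3, a WRKY factor of endosperm growth, was called higher at 1.25 (limma adjusted p = 0.00962). This 1 call stands beside 1.71% of tested genes called higher and 0.369% called lower. ZOU, which acts in endosperm breakdown, had -0.99 (0.0191), and CKX2 had -0.17. IKU2 at 1.06 (0.567) and EDE1 at 0.75 (0.548) were not called. Their highest values, 7.69 and 13.1 TPM, stood in vel3 library 3. IKU2 passed the filter on low values only through the libraries labelled vel3. With the background subtracted MINI3 was at 0.85 and not called (limma adjusted p = 0.388), and ZOU was called lower at -2.09 (0.0374). Under median-ratio scaling MINI3 (0.86) lost its call and ZOU (-1.39) was called lower. Quantile normalization did the same, with MINI3 at 0.72 and ZOU at -1.51. Both were called without vel3 library 3 (MINI3 at 1.07, ZOU at -1.28) and with a pseudocount of 0.1 (1.40 and -1.09). Neither was called with no filter on low values or without the trend. These settings do not change the log2 difference, so ZOU at -0.99 could not be called under either. Of the markers of seed coat and embryo 0 of 9 were called, beside 1.71% of tested genes called higher and 0.369% called lower. The part of these marker differences in the values of the M-gamma genes was not tested.

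At 24HAI nearly all members were at or near 0. AGL34 and AGL35 were listed at 0 in all 6 libraries. PHE1 was listed at 0.262, 0.103 and 0.0532 TPM in the libraries labelled vel3 and at 0 in all 3 Col-0 libraries. It was the only member whose groups did not overlap at this stage (exact permutation p = 0.1, the smallest possible), beside 9.88% of all listed genes with the same order. PHE2 was above 0 in 1 library, the third replicate labelled vel3, at 0.124 TPM, and AGL90 and AGL45 in 1 library, the first replicate labelled vel3, at 0.0587 and 0.179 TPM. AGL36 was listed at 0, 0 and 0.0469 TPM in the libraries labelled vel3, against 0, 0.0459 and 0.139 TPM in Col-0. No read counts stand behind these values here, so a value this low cannot be told from single reads.

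AGL80 was the exception. It had 3.45, 3.85 and 3.08 TPM in the 24HAI libraries labelled vel3, against 3.58, 3.35 and 4.09 TPM in Col-0. The groups overlapped (exact permutation p = 0.5), and the log2 difference was -0.07 with a 95% interval from -0.37 to 0.23 (limma adjusted p = 0.813). AGL80 was the only member to reach the filter of 1 TPM at this stage, where 1.70% of 15918 tested genes were called higher and 0.697% lower, and it was not called. Without that filter 0 of the 8 were called, beside 0.576% of all genes called higher and 0.156% called lower.

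Markers of other seed tissues were found beside those of the endosperm in the 24HAI libraries. The 3 markers of imbibed endosperm summed to 18175 to 20894 TPM in the libraries labelled vel3 and 16558 to 20264 TPM in Col-0, nearly all of it from EPR1, an extensin-like gene. MAN7, a mannanase among the 3, had 114, 87.0 and 76.6 TPM in the libraries labelled vel3, against 15.7, 58.7 and 28.4 TPM in Col-0, and was called higher at 1.58 (limma adjusted p = 0.0464), but not without the trend (0.0654) or without vel3 replicate 3 (0.108). The markers of the developing endosperm summed to 0.161 to 0.456 TPM in the libraries labelled vel3 and 0.354 to 0.942 TPM in Col-0. The 4 embryo markers summed to 50.4 to 54.6 TPM in the libraries labelled vel3 and 68.2 to 83.9 TPM in Col-0, and those of the seed coat to 15.2 to 18.1 TPM in the libraries labelled vel3 and 12.4 to 18.3 TPM in Col-0. WOX2, an embryo marker, had 19.7 to 21.9 TPM in the libraries labelled vel3 and 31.9 to 41.0 TPM in Col-0. The part of these tissues and of the difference in MAN7 in the value of AGL80 was not tested.

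**Figure D4:**
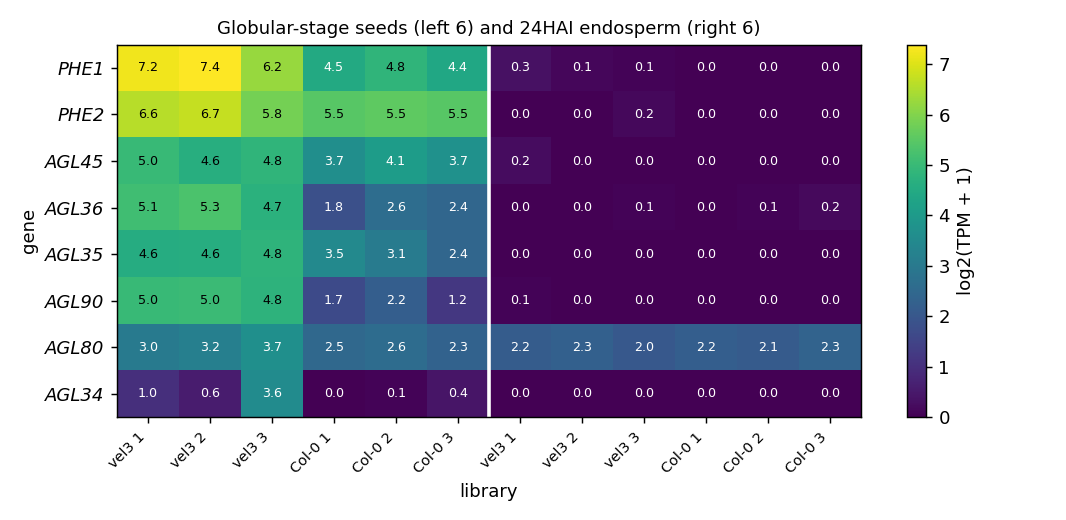
Level of the 8 members as log2(TPM + 1), by colour and printed value, in 12 libraries, the 6 of globular seeds on the left and the 6 of 24HAI endosperm on the right, with the 3 libraries labelled vel3 left of the 3 from Col-0 at each stage. All members but AGL80 are at or near 0 at 24HAI, while AGL80 lies between 2.0 and 2.3 there.

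In the libraries labelled vel3, all 8 members were lower at 24HAI than in every globular library. In Col-0 the same held for PHE1, PHE2, AGL35, AGL36, AGL90 and AGL45. AGL34 in Col-0 was listed at 0 in 1 globular library too, and AGL80 in Col-0 had 3.35 to 4.09 TPM at 24HAI and 3.97 to 5.14 TPM in globular seeds. Stage goes with tissue, RNA extraction and the table in which values were scaled, which cannot be told apart, and neither the stages nor the difference of the genotype effect between them was tested.

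The genes most like PHE1 were looked for outside the family. Likeness was the root-mean-square difference of log2(TPM + 1), each gene centred on its own mean, over the 12 libraries and 26592 other genes. The nearest were GH9B10 (AT2G44550, 0.249), AT3G24065 (0.269), LCR83 (AT5G54225, 0.274), MEO (AT2G20160, 0.285) and AT1G66870 (0.288). GH9B10 had 147, 124 and 73.4 TPM in the globular libraries labelled vel3, against 13.9, 34.6 and 13.7 TPM in Col-0, and was listed at 0 in all 6 libraries at 24HAI. MEO, like PHE1, was above 0 at 24HAI in the 3 libraries labelled vel3 alone, at 0.586, 0.246 and 0.255 TPM. Within the family PHE2 came nearest, at rank 37 (0.562), then AGL45 at 203, AGL35 at 440, AGL36 at 528 and AGL90 at 992, with AGL34 at 11787 and AGL80 at 12369. The measure weighs the drop between the stages and the raised library along with the genotype, since all 12 libraries enter it.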

How the data were processed

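The deposited values are TPM, 1 per gene and library. Per the labels and the methods, reads were trimmed with cutadapt 1.9.1, mapped to TAIR10 with STAR 2.5 and counted on the sense strand per gene with featureCounts. How TPM were made from counts is not given in the sources used here. Values of 18 libraries were read as deposited and 20 ChIP-seq samples were not analysed here. Libraries were grouped by genotype and stage in their titles.

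Within each stage, log2(TPM + 1) was compared for genes averaging 1 TPM or more by limma 3.58.1 (R 4.3.3, trend, Benjamini-Hochberg adjustment). A call needed a 2-fold difference and an adjusted p under 0.05. The authors tested counts with edgeR, which TPM do not allow. The libraries compared are biological replicates. In the main globular fit, however, limma set the spread by the trend alone (infinite prior degrees of freedom). There a gene's own scatter between replicates had no separate weight in its limma p-value. In the main fit of 24HAI endosperm both were weighed (4.41 prior degrees of freedom). Exact tests used Python 3.11.15 and scipy 1.17.1, sequence alignments biopython 1.88, and plots matplotlib 3.10.9. Coordinates and sequences are RefSeq's, on TAIR10.1, whereas the files hold identifiers only. The sequence before the start of 1 member is not reported here. Named genes are the 8 members, VEL3, the 5 genes nearest to PHE1, and genes of the short lists given (M-gamma, M-alpha, FIS-PRC2 and cell type markers). The members, lists and alternatives were chosen with earlier results of these data known. The procedure was tested on simulated data. The columns of globular seeds were matched to their genotype only, and the replicate numbers of 24HAI endosperm did not pair the samples. The alternatives covered the pseudocount (0.1), the filter (none, or 5 TPM), the scaling (median-ratio, quantile, background subtracted, organelle genes left out), the limma settings, the fold minimum, a replicate block and each library left out.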

Additional observations from a re-analysis of the deposited data

How the results depend on the processing

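The direction of each of the 8 globular differences was kept under all alternatives in which the member could be tested. Between the libraries left out in turn, the log2 difference was 2.17 to 2.74 for PHE1, 0.71 to 1.16 for PHE2, 1.40 to 1.92 for AGL35, 2.51 to 2.93 for AGL36, 2.98 to 3.49 for AGL90, 0.89 to 1.11 for AGL45, 0.63 to 0.96 for AGL80 and 1.46 to 2.12 for AGL34, and 4 to 5 members were called. The range of AGL34 comes from 5 of the 6 fits, because without vel3 library 3 it missed the filter on low values. The number of members called was 0 without the trend in limma. Of all genes in globular seeds 454 were called higher and 98 lower. The higher calls numbered 154 with the background subtracted, 0 without the trend, 96 with no filter, 191 after quantile normalization and 331 to 818 with 1 library left out (818 without vel3 library 2). The lower calls numbered 0 without the trend, 171 after median-ratio scaling, 15 with no filter, 64 after quantile normalization, 269 with no fold minimum and 79 to 131 with 1 library left out. The share of calls that were higher was 82.2% as deposited and 67.5% with the background subtracted, where 154 were higher and 74 lower. In 24HAI endosperm 271 genes were called higher and 111 lower. The higher calls numbered 134 at a mean of at least 5 TPM, 155 with no filter, 741 with no fold minimum and 179 to 474 with 1 library left out (179 without vel3 replicate 1, 474 without Col-0 replicate 2). The lower calls numbered 70, 42 and 468 under the same 3 settings, 63 without organelle genes and 66 to 119 with 1 library left out (66 without vel3 replicate 1). Except for the settings that test fewer genes or samples, the cause of these shifts was not tested.

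Results on single pairs turned round in a pair of cases. The mean log2 difference of AGL35 over AGL36 was 0.16 and lay between -0.14 and 0.33 with 1 library left out, below 0 without Col-0 library 1. The change of AGL34 relative to PHE1 was -0.84 and became 0.90 with a pseudocount of 0.1. The log2 difference of VEL3 was called at 1.99 and was not called with the background subtracted (1.53), after quantile normalization (1.00), with no filter or without the trend.

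The replicate numbers did not pair the samples, since deviations of same-numbered 24HAI libraries correlated at -0.39, 0.02 and 0.22. With the replicate block 243 genes were called higher and 119 lower in 24HAI endosperm, and 0 members. The planned block for globular seeds was not run, because the columns of that table were matched to a genotype and not to a numbered sample. TPM carry no depth, so the precision of the low values of AGL34 and of all members but AGL80 at 24HAI is limited in a way that cannot be stated.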
